A study of Homo sapiens with 6 samples.

Results

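GREB1, TFF1, TFF3, PDZK1, MYB, RET, AGR2, AGR3, CXCL12 and SIAH2 are 10 genes long known as estrogen-induced in luminal breast cells, and their RNA was followed in BT474, a breast cancer cell line that carries the estrogen receptor and amplified HER2. They were taken by name: every probe whose gene name on the array equals 1 of the 10 symbols was kept, which gave 19 of 58201 probes and 10 of 43317 gene names. The rule uses the names alone and no measured value, but the 10 genes and the lists below were chosen with earlier results of these data known. Control BT474 cells carried an empty pcDNA3.1 plasmid, BT474-Var1 cells the plasmid with variant 1 of the long non-coding RNA NR2F1-AS1, and BT474-Var4 cells the plasmid with variant 4. All 3 populations grew in RPMI-1640 with 10% heat-inactivated FBS, and the labels name no estrogen, antiestrogen or other hormone treatment of any group. Each group had 2 one-color arrays, A and B, of total RNA. Nothing says that A and B came from separate cultures, so p-values measure only the spread between these samples, which may be technical.

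Per the methods, the variant 1 plasmid was pcDNA3.1/Hygro(+) and the variant 4 plasmid pcDNA3.1-P2A-eGFP, and the study describes an antibiotic selection of control as well as variant cells, with surviving colonies. The sources used here do not give which empty plasmid was in the arrays' Control cells, so the variant, the plasmid backbone and the cells that came through selection cannot be told apart in a comparison with Control. The 6 arrays lay on 1 slide and shared 1 scan. Both BT474-Var1 arrays were in the other column of that slide from the 4 remaining arrays, so column and BT474-Var1 cannot be told apart either. The Control arrays lay in rows 1 and 2 and the 4 arrays of variant cells in rows 3 and 4, so neither can row and Control.

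Estrogen receptor alpha, the product of ESR1, is a transcription factor that estrogen switches on. It binds DNA at estrogen response elements, often at enhancers far from the gene, together with the pioneer factors FOXA1 and GATA3, and recruits coactivators such as NCOA3. GREB1, TFF1 and PGR are among the genes most used to read its activity in luminal breast cancer. The 10 genes do different work once induced: TFF1 and TFF3 are small secreted trefoil peptides, CXCL12 is a secreted chemokine, AGR2 and AGR3 are relatives of protein disulfide isomerase in the secretory pathway, RET is a receptor tyrosine kinase, GREB1 and MYB act in the nucleus, PDZK1 is a membrane scaffold and SIAH2 is a ubiquitin ligase.

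5 of the 60-base probes are shown because the results below turn on near relatives or on different ends of the same gene. Probes were compared with probes alone and not with the transcripts of the relatives. Whether a probe also binds the RNA of its relative was not tested. All run 5′ to 3′ along the transcript and are placed on hg19 by the file headers. TFF1 and TFF3 lie on the minus strand of chromosome 21, at chr21:43783440-43783499 and chr21:43733595-43733654. Capitals mark the longest run that both probes share, which is 6 bases.
TFF1 A_24_P322771: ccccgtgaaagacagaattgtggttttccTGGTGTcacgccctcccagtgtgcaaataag
TFF3 A_33_P3334305: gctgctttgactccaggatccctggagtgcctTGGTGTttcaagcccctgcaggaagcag
AGR2 and AGR3 lie side by side on the minus strand of chromosome 7. The AGR2 probe is placed at chr7:16837274-16839382, a span of 2109 bases for a 60-base probe, so it joins 2 exons. The AGR3 probe is at chr7:16913408-16913467, and the longest run shared with AGR2 is 7 bases, again in capitals.
AGR2 A_23_P31407: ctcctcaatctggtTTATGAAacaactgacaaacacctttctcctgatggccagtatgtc
AGR3 A_23_P42811: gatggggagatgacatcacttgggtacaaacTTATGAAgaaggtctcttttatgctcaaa
One of the 4 CXCL12 probes lies upstream of the other 3 in the gene, at chr10:44880394-44880453 on the minus strand, and opens with an ATG, in capitals.
CXCL12 A_33_P3712341: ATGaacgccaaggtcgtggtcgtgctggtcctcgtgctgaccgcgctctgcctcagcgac
No run of 20 bases of any of the 19 probes occurs in a probe of another gene name on the array, and the longest run shared by any pair of the 19 is 10 bases.

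RefSeq promoters (GRCh38.p14) were at hand for 7 of the 10 genes, as 9 promoters, PDZK1, MYB, RET, AGR2, AGR3, CXCL12 and SIAH2. In the 250 bases before the start, read on both strands, the full estrogen response element, GGTCA then 3 bases of any kind then TGACC, was in 0 of the 9 and in 14 of 35116 promoters of all genes (0.0399%). Its half-site, GGTCA, was in the promoters of PDZK1, AGR3 and CXCL12, and in 32.6% of all promoters. The full element holds the half-site on both strands, so the 2 searches overlap. The windows below show the half-sites in capitals, as GGTCA or, where it lies on the other strand, TGACC. A match of letters is a description of the sequence and not a site of binding.
PDZK1, chr1:145707444-145707488, minus strand: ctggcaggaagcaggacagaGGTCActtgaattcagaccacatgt
AGR3, chr7:16882184-16882228, minus strand: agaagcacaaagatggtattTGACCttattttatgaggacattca
AGR3, chr7:16882013-16882057, minus strand: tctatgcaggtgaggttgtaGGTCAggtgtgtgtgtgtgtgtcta
CXCL12, chr10:44385281-44385325, minus strand: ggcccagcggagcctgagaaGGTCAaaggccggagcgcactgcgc
PDZK1 lies on the plus strand in the hg19 placement of its probe and on the minus strand in GRCh38.p14. A forkhead motif, TGTTTAC, the kind FOXA1 binds, was in the MYB promoter and in 2.98% of all promoters. A GATA motif, AGATAA, was in the AGR2 promoter and in 9.17% of all.

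Levels are log2 values relative to the array's 75th percentile, so 0 is that percentile and a difference of 1 is a 2-fold difference in intensity. Probes differ in how they bind, so levels are compared between groups for 1 probe and never between probes. A probe was tested when some group had it well above background on both of its arrays, and it was called at an adjusted p under 0.05. Of the 19 probes, 18 were tested, at least 1 for each gene. The other, MYB A_33_P3311795, was above background on 1 Control array alone. A change in RNA from a population of cells can come from fewer cells with the RNA or from less RNA per cell, and these arrays cannot tell the 2 apart.

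The luminal identity of the cells was checked first. All 10 luminal markers, KRT7, KRT8, KRT18, KRT19, EPCAM, CDH1, ESR1, GATA3, FOXA1 and ERBB2, stood well above background in every group, on both its arrays. Against Control 3 of the 10 were called higher and 3 lower in BT474-Var1 cells, among them KRT19 by 0.62 (adjusted p = 0.00445), EPCAM by -0.66 (adjusted p = 0.00523) and CDH1 by -0.47 (adjusted p = 0.00588), and 1 was called higher and 2 lower in BT474-Var4 cells. Their summed linear level was 2510 to 2550 in Control, 3090 to 3120 in BT474-Var1 and 2590 to 2600 in BT474-Var4 cells. The largest signals weigh most in this sum, first KRT19, with log2 levels of 9.9 and 9.86 in Control and 10.48 and 10.52 in BT474-Var1 cells. The higher sum in BT474-Var1 cells is thus no general rise of the 10 markers, as EPCAM, CDH1 and FOXA1 were called lower there. Over all tested genes, each by 1 probe, 34.9% were called in the first comparison and 24.8% in the second. Of 5 basal markers, KRT5, TP63 and ACTA2 had no tested probe, and 0, 2 and 1 were above background on both arrays in Control, BT474-Var1 and BT474-Var4 cells. KRT14 was called higher in both variant populations, by 1.35 (adjusted p = 0.00484) and 1.02 (adjusted p = 0.0105), and KRT17 in neither. Of 8 fibroblast markers, COL1A2, COL3A1, LUM and POSTN had no tested probe, while the summed linear level of the list was 3.15 to 3.23 in Control, 3.79 to 3.96 in BT474-Var1 and 5.58 to 5.77 in BT474-Var4 cells. In the same order 2, 3 and 3 were above background on both arrays. COL1A1 was called higher in both variant populations, by 0.34 (adjusted p = 0.0116) and 1.03 (adjusted p = 0.00293). DCN was called higher in BT474-Var4 cells alone, by 3.83 (adjusted p = 0.0125), and was above background on no array of the other groups. PDGFRB and FAP were not called against Control. Of 3 endothelial markers, PECAM1 had no tested probe, and the summed level was 2.58 to 2.78 in Control, 1.77 to 1.89 in BT474-Var1 and 2.43 to 2.57 in BT474-Var4 cells. The part of these markers in the results below was not tested. NR2F1-AS1 itself, by each of its 4 tested probes, was highest in 1 of the variant populations. Probe A_24_P51080 measured 1.67 and 1.5 in BT474-Var4 cells and was well above background on 1 of the other 4 arrays, and probe A_19_P00320140 measured -0.42 and -0.51 in BT474-Var1 cells, at least 15.1-fold above Control, and was well above background on none of the others. Probe A_22_P00006112 measured -0.19 and -0.22 in BT474-Var1 cells and was well above background on 1 of the other 4 arrays. Probe A_22_P00006111 did not separate the populations in this way: it measured 3.01 and 3.02 in BT474-Var4 cells, 7.98 above Control, but was also called higher in BT474-Var1 cells, at -1.69 and -1.52, by 3.36 ± 0.54 (adjusted p = 0.0134).

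No probe of the 10 genes was called higher than Control in either variant population. Under some alternatives, given with each gene, TFF1 in BT474-Var1 and AGR2 in BT474-Var4 cells did pass as higher. In BT474-Var1 cells 9 of the 18 tested probes, from 6 genes, were called lower, where 20.3% of all tested probes were called lower, 14.1% higher and 34.4% in either direction. In BT474-Var4 cells 13 of 18, from 7 genes, were called lower, against 14.3% of all tested probes called lower, 9.87% higher and 24.2% in either direction. The median change over the 18 probes was -0.32 and -0.51 in the 2 populations, beside medians over all tested probes of -0.04 and -0.08. Calls of 2-fold or more were 2 of 18 in BT474-Var1 and 4 of 18 in BT474-Var4 cells, beside 3.94% and 3.17% of all tested probes. The genes fell into different patterns: GREB1, CXCL12 and SIAH2 were lower in both populations, TFF1 and 2 of the 3 TFF3 probes in BT474-Var4 cells alone, and AGR2 in BT474-Var1 cells alone, while RET was lower in both and lowest in BT474-Var1. Compared directly, BT474-Var4 cells were lower than BT474-Var1 cells for 8 probes and higher for 3, where 20.8% of all tested probes were called lower, 20.4% higher and 41.2% in either direction, and 2 of the 18 passed 2-fold, beside 6.86%. The arrays of the groups compared did not overlap for 14, 17 and 16 of the 18 probes, beside 71.7%, 68.6% and 74.6% of all tested probes. Both comparisons with Control share the same 2 Control arrays. The count of 13 dropped to 6 and 5 without Control A or B and to 8 and 7 without BT474-Var4 A or B. Without BT474-Var1 A the count of 11 between the populations was 6, and without BT474-Var4 B it was 7.

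**Figure D1:**
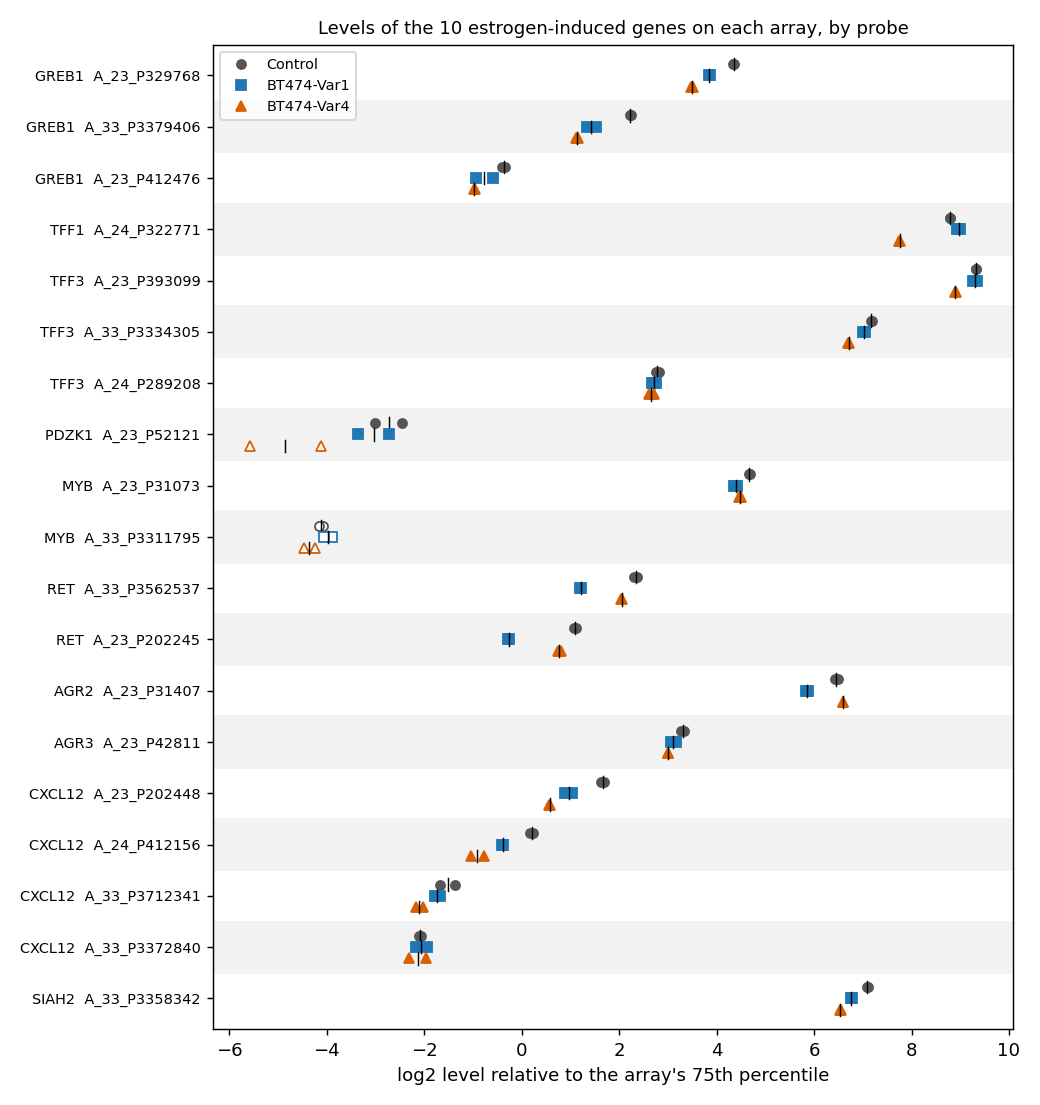
Level of each of the 19 probes on each of the 6 arrays (x axis: log2 relative to the array's 75th percentile; rows: gene and probe). Circles are Control, squares BT474-Var1 and triangles BT474-Var4 arrays; black ticks are group means, and open symbols mark groups not well above background on both arrays. Replicates mostly overlap, and the BT474-Var4 mean lies left of the Control mean in every row but AGR2.

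TFF1 was lower in BT474-Var4 cells and not in BT474-Var1 cells. Its probe A_24_P322771 measured 8.79 on each Control array, 8.94 and 9.0 in BT474-Var1, and 7.75 and 7.77 in BT474-Var4 cells. BT474-Var4 lay below all 4 others, and BT474-Var1 was the highest. The change in BT474-Var4 cells was -1.03 ± 0.05 (SE), 2.05-fold lower (adjusted p = 0.00311). It was 0.18 ± 0.05 in BT474-Var1 cells (adjusted p = 0.0591), which passed as higher under 4 alternatives, at 0.000958 to 0.0408. Between the populations TFF1 was 2.32-fold lower in BT474-Var4 cells (adjusted p = 0.0012). The calls in BT474-Var4 cells, against Control and against BT474-Var1, held under every alternative and with each array left out.

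TFF3, the neighbor of TFF1 in the trefoil cluster, was measured by 3 probes that differed from one another. A_23_P393099 is placed at chr21:43731777-43731813, a span of 37 bases that does not cover the whole 60-base probe. It gave 9.33 and 9.33 in Control, 9.34 and 9.27 in BT474-Var1, and 8.91 and 8.89 in BT474-Var4 cells. The probe printed above, A_33_P3334305, gave 7.18 and 7.17, then 7.04 and 7.0, then 6.72 and 6.70. Both put the BT474-Var4 arrays lowest, with changes against Control of -0.43 ± 0.05 (adjusted p = 0.0109) and -0.47 ± 0.05 (adjusted p = 0.00818). Neither was called in BT474-Var1 cells, where the adjusted p values were 0.678 and 0.0664, though the second passed as lower under 4 alternatives (0.00287 to 0.0475). The third, A_24_P289208 (chr21:43735531-43735590), gave 2.81 and 2.76 in Control, 2.67 and 2.76 in BT474-Var1, and 2.71 and 2.62 in BT474-Var4 cells, with no comparison called. The first call was lost when either Control array or either BT474-Var4 array was left out (adjusted p = 0.051 to 0.0682), and the second without Control A or B (0.0574 to 0.0581). Against BT474-Var1 cells, BT474-Var4 cells differed by -0.40 (adjusted p = 0.00691) by the first probe and -0.31 (adjusted p = 0.0107) by the second. The second of these was lost without BT474-Var1 A or BT474-Var4 B, at 0.0506 to 0.0518.

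CXCL12, the chemokine ligand of CXCR4 and ACKR3, was lower in both populations, and more so in BT474-Var4 cells, by 2 of its 4 probes. A_23_P202448 (chr10:44872888-44872947), for transcript NM_199168, measured 1.64 and 1.69 in Control, 1.04 and 0.89 in BT474-Var1, and 0.57 and 0.59 in BT474-Var4 cells. A_24_P412156 (chr10:44865617-44865676), for NM_000609, measured 0.17 and 0.24, then -0.37 and -0.41, then -1.04 and -0.78. In both the groups stood in the order Control, BT474-Var1, BT474-Var4 with no overlap. The change in BT474-Var4 cells was -1.08 ± 0.07 (2.12-fold lower, adjusted p = 0.00388) by the first and -1.12 ± 0.10 (2.17-fold lower, adjusted p = 0.00654) by the second. In BT474-Var1 cells it was -0.70 ± 0.07 (adjusted p = 0.00547) and -0.60 ± 0.10 (adjusted p = 0.016). The difference of BT474-Var4 from BT474-Var1 cells was -0.39 (adjusted p = 0.0148) and -0.52 (adjusted p = 0.0191).
The first probe's calls against Control held with each array left out. The second's were lost in BT474-Var1 cells without either Control or either BT474-Var1 array (adjusted p = 0.0641 to 0.0802) and in BT474-Var4 cells without Control B (0.0502). Between the populations the first was lost without BT474-Var1 A, BT474-Var4 A or BT474-Var4 B (0.0513 to 0.0639) and the second without BT474-Var1 A or B (0.0691 to 0.0796).
The ATG-bearing probe printed above, A_33_P3712341, measured -1.36 and -1.67 in Control, -1.68 and -1.77 in BT474-Var1, and -2.17 and -2.03 in BT474-Var4 cells. Its change was -0.59 ± 0.13 in BT474-Var4 cells (adjusted p = 0.0361), which no longer passed when any 1 of the 6 arrays was left out (0.0526 to 0.128). A_33_P3372840 (chr10:44871365-44871424), for NM_001033886, ran from -2.30 to -1.94 over all 6 arrays with overlapping groups, and its changes were 0.03 and -0.05 against Control.

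AGR2 was lower in BT474-Var1 cells and not in BT474-Var4 cells, the reverse of TFF1. Its levels were 6.43 and 6.49 in Control, 5.88 and 5.83 in BT474-Var1, and 6.60 and 6.59 in BT474-Var4 cells. The BT474-Var1 arrays lay below the other 4, and BT474-Var4 slightly above Control. The change in BT474-Var1 cells was -0.60 ± 0.05, 1.52-fold lower (adjusted p = 0.00473). That in BT474-Var4 cells was 0.13 ± 0.05 (adjusted p = 0.141, but 0.019 to 0.0376 under 2 alternatives), and the difference between the populations was 0.74 ± 0.05 (adjusted p = 0.00216). AGR3, next to AGR2 in the genome, did not show this pattern. It measured 3.34 and 3.28 in Control, 3.06 and 3.17 in BT474-Var1, and 3.01 on both BT474-Var4 arrays. It was called lower in BT474-Var4 cells, -0.30 ± 0.06 (adjusted p = 0.0341), but not in BT474-Var1 cells, -0.19 ± 0.06 (adjusted p = 0.0753, but 0.00604 to 0.00681 under 2 alternatives), and the populations differed by -0.11 (adjusted p = 0.233). The call was lost without either Control or either BT474-Var4 array, at 0.111 to 0.145, while the AGR2 calls held with each array left out.

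RET, the receptor of the GDNF family of ligands, had the largest fall among the 18 tested probes in BT474-Var1 cells. Probe A_33_P3562537 (chr10:43622213-43622272), for NM_020630, measured 2.37 and 2.31 in Control, 1.19 and 1.23 in BT474-Var1, and 2.04 and 2.07 in BT474-Var4 cells. Probe A_23_P202245 (chr10:43625254-43625313), for NM_020975, measured 1.08 and 1.12, then -0.26 and -0.27, then 0.80 and 0.74. Both put BT474-Var1 lowest, BT474-Var4 between and Control highest, with no overlap. The changes in BT474-Var1 cells were -1.13 ± 0.05 (2.18-fold lower, adjusted p = 0.00279) and -1.37 ± 0.05 (2.58-fold lower, adjusted p = 0.00233). In BT474-Var4 cells they were -0.28 (adjusted p = 0.0285) and -0.34 (adjusted p = 0.0182). Between the populations RET was higher in BT474-Var4 cells by 0.85 (adjusted p = 0.00172) and 1.03 (adjusted p = 0.00133). The calls that involve BT474-Var1 held with each array left out. Those of BT474-Var4 against Control did not: the first was lost without any 1 of the 6 arrays (0.0564 to 0.129), the second without either Control or either BT474-Var4 array (0.0573 to 0.0966).

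GREB1, a chromatin-bound partner of the estrogen receptor, was lower in both populations. Probe A_23_P329768 (chr2:11782680-11782739), for NM_014668, measured 4.34 and 4.36 in Control, 3.86 and 3.85 in BT474-Var1, and 3.48 and 3.52 in BT474-Var4 cells. The steps between groups were many times the gap between replicates. Its changes were -0.49 ± 0.05 in BT474-Var1 (1.41-fold lower, adjusted p = 0.00542) and -0.85 ± 0.05 in BT474-Var4 cells (1.80-fold lower, adjusted p = 0.00333), and the populations differed by -0.36 (adjusted p = 0.0076). Probe A_33_P3379406 (chr2:11721329-11721388), for BC071853, measured 2.23 and 2.24, then 1.52 and 1.34, then 1.12 and 1.16. It gave larger changes, -0.80 ± 0.08 (1.74-fold lower, adjusted p = 0.00519) and -1.09 ± 0.08 (2.13-fold lower, adjusted p = 0.00429). Probe A_23_P412476 (chr2:11725943-11726002), for NM_148903, measured -0.33 and -0.40, then -0.59 and -0.94, then -0.98 and -0.95. Here the BT474-Var1 arrays were spread, and BT474-Var1 cells were not called, -0.40 ± 0.13 (adjusted p = 0.0711), though it was called under 4 alternatives, at 0.0112 to 0.0466. The change was -0.58 without BT474-Var1 A and -0.23 without BT474-Var1 B. BT474-Var4 cells were called at -0.60 ± 0.13 (adjusted p = 0.035), which was lost without either Control or either BT474-Var4 array (0.118 to 0.142). Calls of the first and second probes against Control held with each array left out. The second probe's difference between the populations, -0.29 (adjusted p = 0.0394), was lost with each array left out but BT474-Var1 B (0.0807 to 0.132).

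MYB, a transcription factor of luminal and blood progenitor cells, had small changes. Probe A_23_P31073 (chr6:135540223-135540282) measured 4.67 and 4.68 in Control, 4.43 and 4.35 in BT474-Var1, and 4.51 and 4.46 in BT474-Var4 cells. Both variant groups lay below Control. Against Control BT474-Var1 cells changed by -0.29 ± 0.06 (adjusted p = 0.0218), and the change of BT474-Var4 cells was -0.19 ± 0.06 (adjusted p = 0.0756, but 0.00446 to 0.022 under 2 alternatives). The first was lost without either Control or either BT474-Var1 array (0.055 to 0.0991), without the filter on dim probes (0.131), and under quantile normalization, where the change was -0.15.

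PDZK1, a scaffold with PDZ domains that holds transporters at the membrane, was dim throughout. Its probe A_23_P52121 (chr1:145763717-145763776) measured -2.45 and -3.00 in Control, -3.36 and -2.71 in BT474-Var1, and -4.11 and -5.58 in BT474-Var4 cells. Control and BT474-Var1 overlapped, and the probe was not well above background on either BT474-Var4 array. By the bound of the main fit, BT474-Var4 cells were at least 2.2-fold lower than Control, but this was not called (adjusted p = 0.059). They were at least 1.76-fold lower than BT474-Var1 cells, also not called (adjusted p = 0.0625). Over the alternatives the changes ran from -2.86 to -0.29 against Control and from -2.54 to -0.27 against BT474-Var1 cells. The bounds thus hold for the main fit alone. Each change passed under 3 alternatives, so both size and call depend on the processing.

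SIAH2, a ubiquitin ligase that marks the prolyl hydroxylases of the oxygen-sensing pathway for degradation, was lower in both populations by small steps. Its probe A_33_P3358342 (chr3:150458938-150458997) measured 7.11 and 7.08 in Control, 6.77 and 6.76 in BT474-Var1, and 6.53 and 6.55 in BT474-Var4 cells. No group overlapped another. BT474-Var1 cells changed by -0.33 ± 0.05 (adjusted p = 0.0108), BT474-Var4 cells by -0.56 ± 0.05 (adjusted p = 0.00581), and the populations differed by -0.23 (adjusted p = 0.0219). The BT474-Var1 call was lost without either Control or either BT474-Var1 array (0.0505 to 0.0654), and the difference between populations without any 1 of the 6 arrays (0.0524 to 0.0827).

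**Figure D2:**
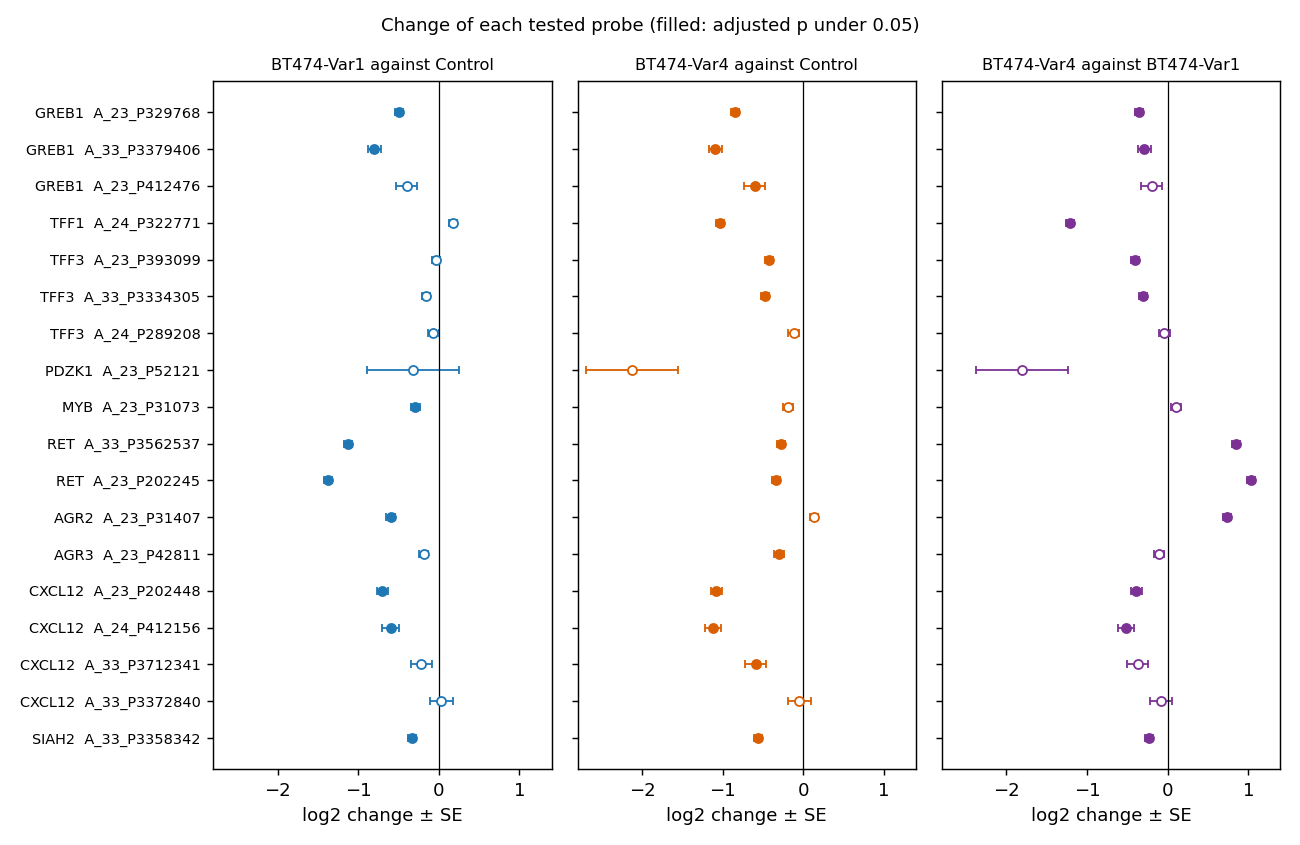
Change of each of the 18 tested probes (x axis: log2 change with its standard error; rows: gene and probe) for each population against Control and for BT474-Var4 relative to BT474-Var1. Filled circles passed an adjusted p of 0.05. Filled circles lie left of 0 in the first and second panels, and in the third the 2 RET probes and AGR2 lie right of 0.

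A wider list of estrogen-induced genes, 43 without the 10, was read with 1 probe a gene, the brightest tested, and 42 were tested. In BT474-Var1 cells 23 were called lower and 2 higher, where 20.7% of all tested genes were called lower, 14.2% higher and 34.9% in either direction. In BT474-Var4 cells 18 were called lower and 9 higher, against 14.6% lower, 10.2% higher and 24.8% in either direction over all genes. The median change was -0.30 and -0.19 in the 2 populations, beside -0.05 and -0.08 over all genes. Between the populations 16 were higher in BT474-Var4, 7 lower, and the median was 0.01, where 20.9% of all genes were called higher, 21% lower and 42% in either direction. The 25 calls in BT474-Var1 cells became 13, 10 and 15 without Control A, Control B or BT474-Var1 A. The 27 in BT474-Var4 cells became 9 without either Control array and 12 and 14 without BT474-Var4 A or B, and the 23 between populations became 14 without BT474-Var1 A.

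WISP2, a secreted protein of the CCN family, was higher in both populations, from -1.20 and -1.11 in Control to -0.15 and 0.01 in BT474-Var1 and 0.01 and -0.03 in BT474-Var4 cells. Its changes were 1.08 ± 0.08 (adjusted p = 0.00385) and 1.15 ± 0.08 (adjusted p = 0.00426), and over the alternatives they were as small as 0.58 and 0.62. The second rise in BT474-Var1 cells was ABCA3, a lipid transporter, at 0.40 (adjusted p = 0.0258, up to 0.115 over the alternatives). The largest falls there were GFRA1, -0.90 ± 0.05 (adjusted p = 0.00311), PKIB, an inhibitor of protein kinase A, -0.87 ± 0.07 (adjusted p = 0.00457), and RAB31, a small GTPase, -0.86 ± 0.18 (adjusted p = 0.0274, up to 0.109 over the alternatives, with changes from -1.06 to -0.26).
AREG, a ligand of the EGF receptor, moved in opposite directions. It measured 2.46 and 2.52 in Control, 2.21 and 2.16 in BT474-Var1, and 3.40 and 3.39 in BT474-Var4 cells, and was called lower in the first, -0.30 (adjusted p = 0.017, up to 0.114), and higher in the second, 0.91 ± 0.05 (adjusted p = 0.00343). The difference between the populations was 1.22 (adjusted p = 0.0012). CTSD, a lysosomal protease, was higher in BT474-Var4 cells, 0.53 (adjusted p = 0.0111, up to 0.079).
The falls named in BT474-Var4 cells are those of MYBL1, a relative of MYB, PGR, the progesterone receptor, and ELOVL2, a fatty acid elongase. MYBL1 fell from 2.29 and 2.45 to 0.94 and 0.91, a change of -1.45 ± 0.07 (adjusted p = 0.00311). PGR fell from 4.77 on both Control arrays to 3.58 and 3.53, a change of -1.22 ± 0.05 (adjusted p = 0.00262). ELOVL2 measured -1.53 and -1.56 in Control and -2.81 and -3.72 in BT474-Var4 cells, where 1 of the 2 arrays was well above background. Its change of -1.72 ± 0.31 (adjusted p = 0.0247, up to 0.107) ran from -2.18 to -0.43 over the alternatives, so its size is uncertain.

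**Figure D3:**
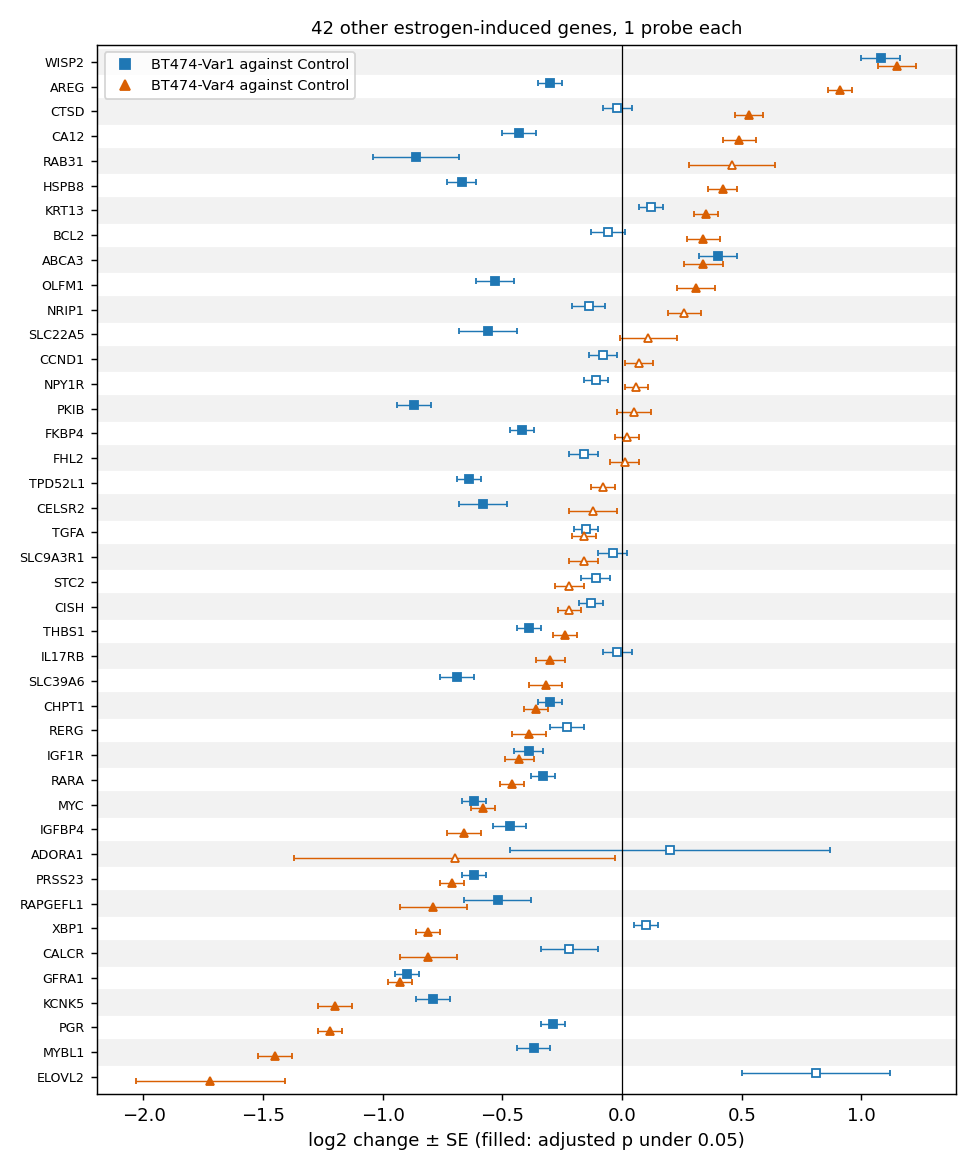
Change of 42 other estrogen-induced genes against Control (x axis: log2 change with its standard error; rows: genes, ordered by the change in BT474-Var4 cells). Squares are BT474-Var1 and triangles BT474-Var4; filled symbols passed an adjusted p of 0.05. WISP2 lies to the right of 0 in both, and AREG to the left in BT474-Var1 and to the right in BT474-Var4.

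Of 14 receptors, pioneer factors and cofactors, 13 were tested, and ESR2 was not. Calls in BT474-Var1 cells were 1 higher and 4 lower, those in BT474-Var4 cells were 1 higher and 2 lower, so 8 and 10 of the 13 were not called. The 5 and 3 called of 13 lie near the shares of all tested genes, 34.9% and 24.8%. ESR1 had 3 probes. A_23_P309739 measured 2.11 and 2.18 in Control, 1.95 and 2.09 in BT474-Var1, and 1.64 and 1.71 in BT474-Var4 cells, a change of -0.13 (adjusted p = 0.238) in the first and -0.47 ± 0.07 (adjusted p = 0.0176, up to 0.101 over the alternatives) in the second. A_33_P3379356 measured -1.86 and -2.21, then -1.51 and -1.75, then -2.86 and -2.91, and was called lower in BT474-Var4 cells as well, -0.85 ± 0.15 (adjusted p = 0.0232). A_24_P383478 was not called in either, with changes of 0.08 and -0.06. The BT474-Var4 mean was the lowest by each of the 3 probes, and 2 of the 3 passed. The call of A_33_P3379356 was not followed over the alternatives.
PGR had a second probe, A_23_P138938, and both were lower in both populations. It gave 4.49 and 4.41 in Control, 4.01 and 3.92 in BT474-Var1, and 3.13 and 3.14 in BT474-Var4 cells, changes of -0.48 (adjusted p = 0.0087) and -1.32 (adjusted p = 0.00293). The calls of this second probe were not followed over the alternatives. The first probe gave -0.29 in BT474-Var1 cells (adjusted p = 0.0187, up to 0.124).
FOXA1, by A_23_P37127, measured 5.78 and 5.80 in Control, 5.28 and 5.31 in BT474-Var1, and 5.39 and 5.40 in BT474-Var4 cells. It was called lower in both, -0.50 (adjusted p = 0.00529, up to 0.0501) and -0.40 (adjusted p = 0.0108, up to 0.0943). Its other probe A_33_P3332997 was called in neither (adjusted p = 0.756 and 0.0943). GATA3 measured 4.32 and 4.29 in Control, 4.52 and 4.43 in BT474-Var1, and 4.20 and 4.15 in BT474-Var4 cells, changes of 0.17 (adjusted p = 0.0844) and -0.13 (adjusted p = 0.155).
GPER1, a G protein-coupled receptor described as a membrane receptor for estrogen, was the 1 gene called higher in each, by 0.78 ± 0.07 (adjusted p = 0.00457) and 1.21 ± 0.07 (adjusted p = 0.00333). The coactivator NCOA3 was lower in BT474-Var1 cells, -0.63 (adjusted p = 0.00731, up to 0.0508), as was TFAP2C, a transcription factor of luminal cells, -0.60 (adjusted p = 0.00848, up to 0.0543). EP300, a histone acetyltransferase, was the fourth, at -0.30 (adjusted p = 0.0146), a call not followed over the alternatives.

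Binding partners, substrates and paralogs of the 10 genes numbered 22, of which 19 were tested. GFRA1, MYBL1 and SLC9A3R1 are on the wider list as well. Calls were 5 higher and 5 lower in BT474-Var1, 1 higher and 5 lower in BT474-Var4 cells, and between the populations 2 higher and 6 lower in BT474-Var4. The 10, 6 and 8 genes called stand beside 34.9%, 24.8% and 42% of all tested genes. RET works with a GFRA co-receptor. GFRA1 measured 2.14 and 2.16 in Control, 1.26 and 1.24 in BT474-Var1, and 1.25 and 1.18 in BT474-Var4 cells, so it was lower by about the same step in both populations, -0.90 and -0.93, and the difference between them was -0.03 (adjusted p = 0.662). RET itself differed between them, as given above. GFRA2 was lower in BT474-Var1 cells, -0.70 ± 0.12 (adjusted p = 0.0152, up to 0.0775), with changes from -0.86 to -0.33 over the alternatives. GDNF, a ligand of this receptor complex, was dim, at -3.47 and -3.60 in BT474-Var1 cells, where it was called higher by 0.45 (adjusted p = 0.015).
The receptors of CXCL12 went different ways. CXCR4, the signaling receptor, measured 2.04 and 1.99 in Control, 3.27 and 3.29 in BT474-Var1, and 2.04 on both BT474-Var4 arrays. It rose by 1.27 ± 0.05 in BT474-Var1 cells (adjusted p = 0.00233), and in BT474-Var4 cells the change was 0.03 (adjusted p = 0.726). ACKR3, the scavenging receptor, measured 3.88 and 3.92 in Control, 3.83 and 3.90 in BT474-Var1, and 4.61 and 4.62 in BT474-Var4 cells. It rose by 0.72 ± 0.05 in BT474-Var4 cells (adjusted p = 0.00496, up to 0.0506), and in BT474-Var1 cells the change was -0.04 (adjusted p = 0.644). Each receptor also differed between the populations, CXCR4 by -1.24 (adjusted p = 0.0012) and ACKR3 by 0.75 (adjusted p = 0.00214).
The prolyl hydroxylases known as substrates of SIAH2 are EGLN2 and EGLN3. EGLN2 measured 2.79 and 2.85 in Control, 3.62 and 3.53 in BT474-Var1, and 2.45 and 2.51 in BT474-Var4 cells. It was called in both, higher in BT474-Var1, 0.76 (adjusted p = 0.0044), but lower in BT474-Var4, -0.34 (adjusted p = 0.0252), and the populations differed by -1.10 (adjusted p = 0.00148). EGLN3 measured 0.06 and 0.21 in Control, 1.69 and 1.4 in BT474-Var1, and -0.27 and -0.29 in BT474-Var4 cells, a change of 1.41 ± 0.12 for BT474-Var1 (adjusted p = 0.00454) and -0.41 for BT474-Var4 (adjusted p = 0.0688). Their relative EGLN1 measured 0.23 and 0.28, then 1.12 and 1.07, then 0.33 and 0.42, and was called higher in BT474-Var1 cells alone, 0.84 ± 0.06 (adjusted p = 0.00376). The MYB relatives MYBL1 and MYBL2 were lower in both, MYBL2 at -0.35 (adjusted p = 0.0147, up to 0.0949) and -0.52 (adjusted p = 0.00953, up to 0.0754) and MYBL1 at -0.37 in BT474-Var1 cells (adjusted p = 0.023, up to 0.112) beside the fall in BT474-Var4 given above. TXNDC12, a relative of AGR2 and AGR3, was lower in both, -0.65 (adjusted p = 0.00593) and -0.39 (adjusted p = 0.0231, up to 0.122). EGLN2, GDNF and EP300 fall outside the rule for named genes and were chosen after their values were seen. Their calls were not followed over the alternatives. TFF2 and BZW2, given below, fall outside the rule too.

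**Figure D4:**
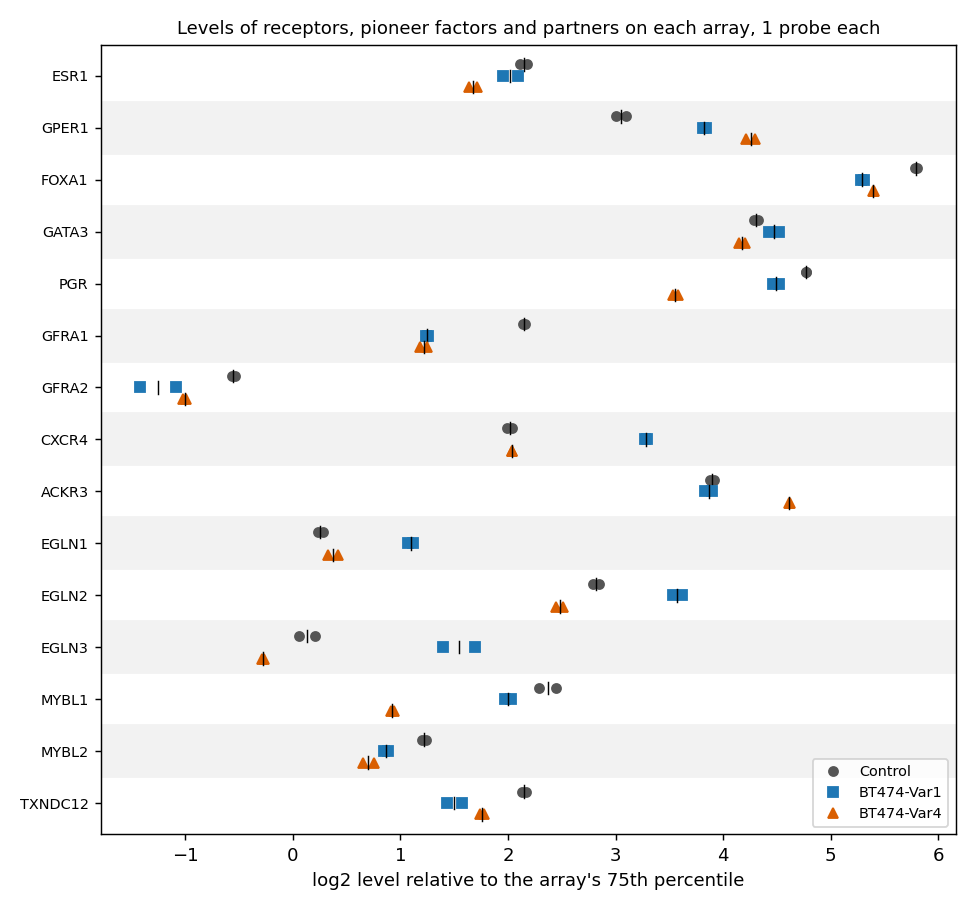
Level on each array of ESR1, GPER1, FOXA1, GATA3, PGR and 10 partners or relatives of the genes, 1 probe each (x axis: log2 relative to the array's 75th percentile; rows: genes). Circles are Control, squares BT474-Var1 and triangles BT474-Var4; black ticks are group means. CXCR4 and the EGLN genes stand to the right in BT474-Var1 and ACKR3 in BT474-Var4, while both populations overlap in GFRA1, left of Control.

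Of 7 neighbors of TFF1 and TFF3 on chromosome 21, 6 were tested, and in BT474-Var4 cells 3 were called higher and 1 lower, where 10.2% of all tested genes were called higher and 14.6% lower. TFF2, the trefoil gene between them, measured -0.85 and -0.94 in Control, -0.86 and -0.85 in BT474-Var1, and -0.75 and -1.02 in BT474-Var4 cells, with changes of 0.04 and 0.01 and no call. UMODL1 rose from -2.58 on both Control arrays to -0.35 on both BT474-Var4 arrays, a change of 2.23 ± 0.05 (adjusted p = 0.00202) that was as small as 0.95 over the alternatives, and by 0.49 in BT474-Var1 cells (adjusted p = 0.00623, up to 0.0533, with changes down to 0.21). TMPRSS3, a serine protease, was lower in both, -0.88 (adjusted p = 0.0047) and -0.54 (adjusted p = 0.0149, up to 0.089). SLC37A1, a sugar phosphate transporter, was lower in BT474-Var1 cells, -0.48 (adjusted p = 0.0108, up to 0.0679), and higher in BT474-Var4 cells, 0.36 (adjusted p = 0.0296, up to 0.144). RSPH1 was higher in BT474-Var4 cells, 0.65 (adjusted p = 0.00954, up to 0.0673).
Of the 4 genes beside AGR2 and AGR3 on chromosome 7, BZW2, ANKMY2, TSPAN13 and AHR, all 4 were called higher in the BT474-Var4 population when it was set against the BT474-Var1 population, where 20.9% of all tested genes were. The call of AHR (adjusted p = 0.01) was lost under 3 alternatives, with changes from 0.57 to 0.7. That of BZW2 (adjusted p = 0.0237) was not followed over the alternatives. Against Control 1 of the 4 was called lower in BT474-Var1 cells, where 20.7% of all tested genes were. In BT474-Var4 cells 2 were called higher, where 10.2% of all tested genes were. TSPAN13, a tetraspanin, measured 4.60 and 4.63 in Control, 4.04 and 4.02 in BT474-Var1, and 4.52 and 4.62 in BT474-Var4 cells. It was lower in BT474-Var1 cells, -0.58 ± 0.06 (adjusted p = 0.00538), with a change of -0.04 in BT474-Var4 cells (adjusted p = 0.645). ANKMY2 and AHR, the aryl hydrocarbon receptor, were higher in BT474-Var4 cells, 0.58 (adjusted p = 0.0132, up to 0.0814) and 0.55 (adjusted p = 0.0261, up to 0.112).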

How the data were processed

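Cy3-labeled RNA of the 6 samples was measured on Agilent arrays in 1 color. Spot quantification by the authors used Agilent Feature Extraction 11.5.1.1, and the deposited files hold background-subtracted intensity on a linear scale. A second deposited table holds log2 values after a shift to the 75th percentile. Its columns differed from the values used here by a median of 0.00716 or less. The headers place probes on hg19 and give another design number than the methods.

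Outlier spots were left out, spots of a probe averaged, and the array's 75th percentile of log2 intensity subtracted. limma 3.58.1 in R 4.3.3 fitted group means to the 6 arrays. P-values were adjusted by Benjamini-Hochberg over 31858 tested probes of 24619 gene names (54.7% of probes). A bound is the brighter mean against the mean of the dimmer group. In that group a value below its array's dimmest signal well above background is first raised to that signal. The script was tested on simulated data. Per array 47.6% to 57.5% of probes were well above background and 0 spots were saturated. Precision is limited by having 2 arrays a group.

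The genes and lists were chosen with earlier results of these data known. Every probe of the 10 genes is named, with ESR1, PGR, FOXA1 and GATA3. From each other list up to 3 rises and 3 falls per variant are named among called genes whose groups do not overlap. The leukocyte marker list is not reported here. Sequences are from the array files and RefSeq (GRCh38.p14). Alternatives were quantile normalization, normexp with an offset of 50, no filter, the deposited table, and eBayes with its trend and robust settings. The others were a filter on all 6 arrays, an analysis of variance without eBayes and a block for the replicate letter. The methods name a one-way analysis of variance, but here its contrasts between 2 groups were tested and adjusted by Benjamini-Hochberg. It is thus not a repeat of the study's own test. A fit to only 2 groups, a 2-fold rule and each array left out were run too. The replicate letters do not pair samples (correlations of -0.0154 to 0.0452).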

Additional observations from a re-analysis of the deposited data

How the results depend on the processing

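No called change of the 10 genes turned its direction under any alternative. Of the calls, GREB1 A_33_P3379406, RET by both probes, AGR2 and CXCL12 A_23_P202448 in BT474-Var1 cells, GREB1 A_23_P329768 and A_33_P3379406, TFF1 and CXCL12 A_23_P202448 in BT474-Var4 cells, and TFF1, both RET probes and AGR2 between the populations, 5, 4 and 4 calls, passed in every alternative fit. Of these the RET calls in BT474-Var1 cells, GREB1 A_33_P3379406, TFF1 and CXCL12 A_23_P202448 in BT474-Var4 cells, and TFF1 and RET A_23_P202245 between the populations passed the 2-fold rule too. Quantile normalization gave -0.15 for MYB and -0.19 for SIAH2 in BT474-Var1 cells and -0.23 for TFF3 A_23_P393099 in BT474-Var4 cells. The normexp correction gave -0.35 and -0.65 for CXCL12 A_24_P412156 in the 2 populations, and in BT474-Var4 cells -0.22 for CXCL12 A_33_P3712341 and -0.34 for GREB1 A_23_P412476. Without the filter on dim probes, where more probes are tested, the calls of the 18 probes were 5 in BT474-Var1 cells, 5 in BT474-Var4 cells and 4 between them, and those of the wider estrogen list 9, 7 and 13. At 2-fold or more they were 2, 4 and 2 for the probes and 1, 5 and 5 for the list. With 1 array left out at a time the probes called ran from 6 to 9 in BT474-Var1 cells, 5 to 11 in BT474-Var4 cells and 6 to 10 between them, and the list from 10 to 24, 9 to 19 and 14 to 20. With the replicate letter as a block, which is shared by number alone, the replicate block gave 9, 9 and 9 probes in place of 9, 13 and 11. TFF1 was called higher in BT474-Var1 cells under 4 alternatives. They were normexp, the filter on all 6 arrays, eBayes with its trend and robust settings, and the analysis of variance without eBayes. A slide or scan block could not be run, since there was 1 of each. Dim probes such as PDZK1 are limited by background.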
